A study of Mus musculus with 6 samples.

Results

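The genes described here are the apolipoprotein cluster of mouse chromosome 7 (Apoe, Apoc1, Apoc2 and Apoc4), the genes that adjoin it on either side (Clptm1 and Tomm40), lipoprotein lipase (Lpl), the apolipoprotein genes Apoa1 and Apob, and the apolipoprotein E receptor gene Lrp8. They are 10 of the 18193 genes that have a probe set of their own on the arrays, and 18 probe sets carry 1 of them alone, of 45037 tested. The genes were chosen by their measured difference between transgenic and wild-type testis on these same arrays, that of Apoc2 first, so every difference of a member between transgenic and wild-type testis is given as a description, without a p-value. The 6 arrays hold testis RNA of adult mice on a C57BL/6 x CBA hybrid background, 3 from mice with a constitutively active DREAM mutant and 3 from wild-type mice, each a separate biological replicate by the submitters' account. DREAM, the product of Kcnip3, is a calcium sensor that represses transcription from DNA while it is free of calcium. The promoter that drives the transgene, the cells that express it and the number of founder lines are not given in the sources used here. All values are RMA log2 intensities, a scale on which 1 unit is a doubling, and RMA gives no detection call. The arrays' medians ran from 5.99 to 6.08. Wild type replicate 2 stood apart on the first principal component (38.9% of the variance), at 42.2 against -23.3 to 5.27 for the other 5 arrays, and its effect is given below where it matters. The arrays carry the germ cell transcripts of a testis: the mean of 15 probe sets of haploid germ cell markers lay between 12.32 and 12.39 in transgenic and between 12.37 and 12.39 in wild-type testis.

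Apolipoproteins are the protein coats of the particles that carry triglyceride and cholesterol through blood and interstitial fluid. Lipoprotein lipase, bound to the capillary wall, splits the triglyceride of these particles into fatty acids, and it needs apolipoprotein C2 as its activator. Apolipoprotein C1 hinders the uptake of particles by their receptors, and apolipoprotein E is the ligand by which LDL receptor family members take them up. In testis, lipoproteins supply cholesterol to Leydig cells for steroid synthesis and fatty acids to Sertoli and germ cells, and Lrp8 also takes up selenoprotein P, the selenium carrier that sperm development needs.

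DREAM binds DNA at sites built on the bases GTCA, so the stretches in front of Apoc2, whose difference between the genotypes was the largest of the 18 member probe sets, and of Apoc4, its neighbour in the cluster, are shown with that core (GTCA, or TGAC on the other strand; these cannot overlap each other) in capitals. Both lie on the minus strand of GRCm38.p6 and are RefSeq sequence, written 5′ to 3′ and ending at the base before the transcript start. The Apoc2 stretch is chr7:19677942-19678083 (142 bases), since the 108 bases further upstream in the RefSeq window belong to the body of Apoc4. The Apoc4 stretch is chr7:19681461-19681710 (250 bases).
Apoc2: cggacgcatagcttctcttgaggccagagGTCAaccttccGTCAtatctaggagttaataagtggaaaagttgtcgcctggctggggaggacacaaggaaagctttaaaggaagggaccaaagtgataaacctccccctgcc
Apoc4: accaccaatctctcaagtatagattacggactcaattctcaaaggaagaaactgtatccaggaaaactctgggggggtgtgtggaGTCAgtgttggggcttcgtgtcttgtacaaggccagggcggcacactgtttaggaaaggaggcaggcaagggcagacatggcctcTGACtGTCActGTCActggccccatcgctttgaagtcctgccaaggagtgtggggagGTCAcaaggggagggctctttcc
In these stretches the core occurs 2 times before Apoc2 and 5 times before Apoc4. Counted over the whole RefSeq windows of 300 bases (250 before and 50 after the start), it occurs 4 times at Apoc2, 5 times at Apoc4 and 1 time each at Clptm1 and Tomm40. The windows of the 3 Apoe starts hold it 2, 1 and 0 times, those of the 3 Lrp8 starts 3, 2 and 4 times, and those of Apoa1 and Apob 0 times. RefSeq windows were matched for 8 of the 10 genes, leaving Apoc1 and Lpl. Of 32851 such windows in the genome, 85.2% hold the core at least 1 time, with a median of 2, and 17.3% hold it 4 times or more. A 4-base match is a description of these letters and not a binding site.

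Within the cluster, Apoc2 and Apoc1 differed between the genotypes in opposite directions, and Apoc4 and Apoe overlapped. Apoc2, the lipase activator, read 6.32, 6.13 and 6.11 in the 3 transgenic testes, against 8.17, 8.30 and 8.09 in the wild-type testes. Every transgenic value lay far below every wild-type value. The means were 6.19 ± 0.12 in transgenic and 8.19 ± 0.11 in wild-type testis (log2, SD, n = 3 each), a difference of -2.00 (SE 0.10), or 4.00-fold lower intensity. It lay between -2.07 and -1.94 when any 1 array was left out. In a whole tissue, fewer cells of a type that makes a transcript and less transcript per cell cannot be told apart. Apoc2 is read by 1 probe set. RefSeq also lists a joined gene, Gm44805 (Apoc4-Apoc2), that shares 1 end with Apoc2 and the other with Apoc4, with no probe set of its own, so the Apoc2 probe set may also take up that transcript.

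Apoc1, the brake on receptor uptake, read 8.73, 8.83 and 8.63 in transgenic testes, against 7.74, 7.99 and 7.97 in wild-type testes. The groups did not overlap, with all transgenic values above. The means were 8.73 ± 0.10 in transgenic and 7.90 ± 0.14 in wild-type testis (log2, SD, n = 3 each), a difference of 0.83 (SE 0.10), or 1.78-fold higher intensity. The difference lay between 0.75 and 0.88 when any 1 array was left out. Apoe, the receptor ligand, read 9.06, 9.37 and 9.11 in transgenic testes, against 8.76, 9.03 and 9.13 in wild-type testes. The highest value was that of transgenic replicate 2 and the lowest that of wild type replicate 1, and the others interleaved (difference 0.21, SE 0.13). The difference was 0.10 without wild type replicate 1 and 0.11 without transgenic replicate 2. Apoc4, a minor component of very-low-density lipoprotein, read 5.96, 6.28 and 5.97 in transgenic testes, against 6.21, 5.91 and 5.98 in wild-type testes. These values overlapped throughout, and the difference was 0.04 (SE 0.12). Apoc4 lies between Apoc2 and Apoc1 in gene order, with only the joined gene also named there.

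**Figure D1:**
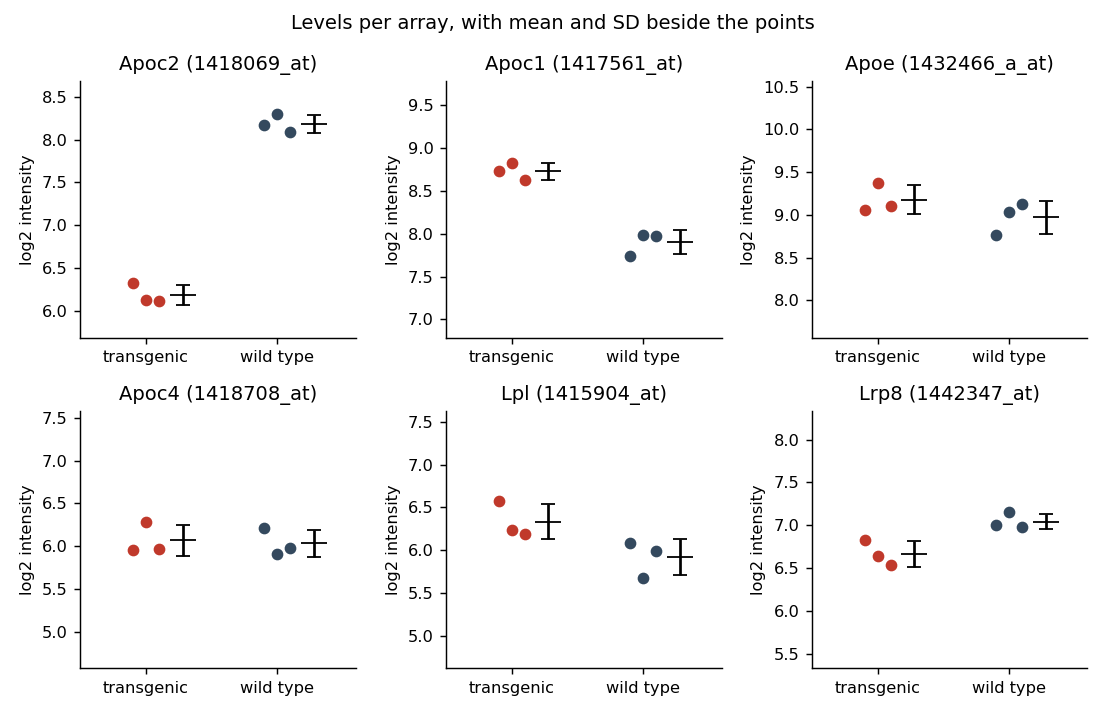
Log2 intensity in each array (points) with the group mean and SD beside them, for 6 member probe sets, transgenic left and wild type right, 3 arrays each, on axes of equal height. Apoc2 sits between 6.11 and 6.32 in transgenic testis, against 8.09 to 8.30 in wild type, Apoc1 sits above wild type, and the Apoe and Apoc4 groups overlap.

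Of the 18 member probe sets, 2 passed limma's test at an adjusted p under 0.05, Apoc1 as higher and Apoc2 as lower, where 0.444% of all 45037 probe sets passed (0.171% as higher and 0.273% as lower). The members were picked around this contrast, so nothing is read from that count or from which calls held in other fits. The call of Apoc1 ended without wild type replicate 3, without each of the 3 transgenic arrays, and with the Gapdh RNA integrity measure in the fit, while that of Apoc2 was kept in each of these fits. The groups did not overlap in 5 of the 18, with transgenic above in 3 (Apoc1, 1 of Lpl and 1 of Apoa1) and below in 2 (Apoc2 and 1 of Lrp8), where 11.3% of all probe sets had no overlap (6.35% with transgenic above and 4.95% below). The median difference was 0.02 over the 18 and 0.02 over all probe sets. Of the 18 probe sets, 14 would remain if the dimmest 40% of the table were dropped, and 8 if the dimmest 60% were. The 4 lost at the first step were the 2 of Apob, the dimmer one of Clptm1 and the dimmer one of Lpl.

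**Figure D2:**
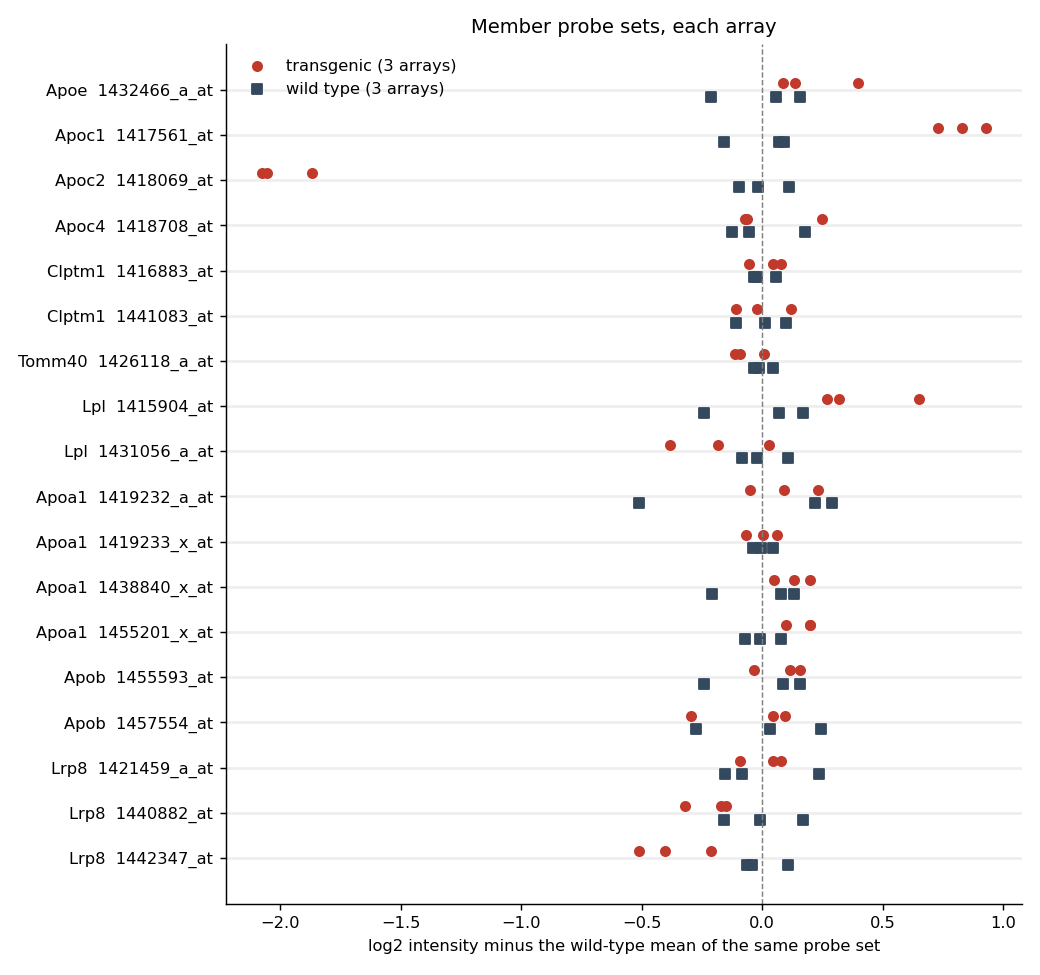
Log2 intensity minus the wild-type mean of the same probe set, for all 18 member probe sets (rows), with transgenic arrays as circles and wild-type arrays as squares, 3 each. Apoc2 lies about 2 units to the left in every transgenic array, Apoc1 lies to the right, and most other rows interleave.

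The genes at the edges of the cluster overlapped between the genotypes. Clptm1, a membrane protein gene next to Apoc2, read 10.24, 10.14 and 10.27 in transgenic testes, against 10.25, 10.16 and 10.17 in wild-type testes with its brighter probe set. That is a difference of 0.02 (SE 0.09), and the dimmer probe set gave -0.003 (SE 0.10). Tomm40, the pore of the mitochondrial outer membrane's import complex and next to Apoe, read 8.33, 8.23 and 8.21 in transgenic testes, against 8.29, 8.37 and 8.31 in wild-type testes (difference -0.07, SE 0.09). The 2 lower transgenic values lay below all wild-type values, and that of replicate 1 among them.

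The 10 protein-coding genes on each side of Apoc2 were taken from the RefSeq gene order. Of these 20 genes, 5 are members, and 14 of the other 15 had a probe set of their own, 18 probe sets in all. None of the 18 passed limma's test (0.444% of all probe sets did), and 2 had an unadjusted p under 0.05, where 6.69% of all probe sets did. Their differences ran from -0.42 to 0.20, with a median of 0.01 against 0.02 over all probe sets. The groups did not overlap in 6 of them, 1 with transgenic above and 5 below. Of all probe sets 11.3% had no overlap, 6.35% with transgenic above and 4.95% below. Clasrp, a splicing-related protein gene 3 places from Apoc2, read 9.37, 9.40 and 9.26 in transgenic testes, against 9.70, 9.77 and 9.83 in wild-type testes (difference -0.42, SE 0.09, limma adjusted p = 0.121). Its groups were well apart, but the call failed over the whole table and passed only with a variance trend (0.0386) or array weights (0.00865). Trappc6a, a vesicle-tethering subunit gene 8 places away, read 8.37, 8.49 and 8.34 in transgenic testes, against 8.75, 8.88 and 8.83 in wild-type testes (difference -0.42, SE 0.09, limma adjusted p = 0.128). Its other probe set gave 0.04 (SE 0.10), so the gene has no single reading. The first passed only with array weights (adjusted p = 0.0133).

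The remaining neighbours lay closer to 0. Nkpd1 read -0.17 and Gemin7, of the complex that assembles splicing particles, -0.12, both with all transgenic values below. The NF-kappa-B subunit gene Relb read 0.05 and Bcl3, which binds that family's proteins, 0.15. Nectin2, an adhesion protein of the junctions between Sertoli cells and spermatids, gave -0.21 (all transgenic values below) and 0.09 (overlapping) with its 2 probe sets. Exoc3l2 gave -0.05 and 0.20, and the ubiquitin ligase gene Cblc 0.14 (overlapping) and 0.13 (all transgenic values above). Bloc1s3, of a complex for lysosome-related organelles, read 0.03, Ppp1r37 -0.01, Zfp296 0.09, the laminin receptor gene Bcam -0.01 and Gm19345 -0.07. The adjusted p of these probe sets was 0.829 or above (limma).

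**Figure D3:**
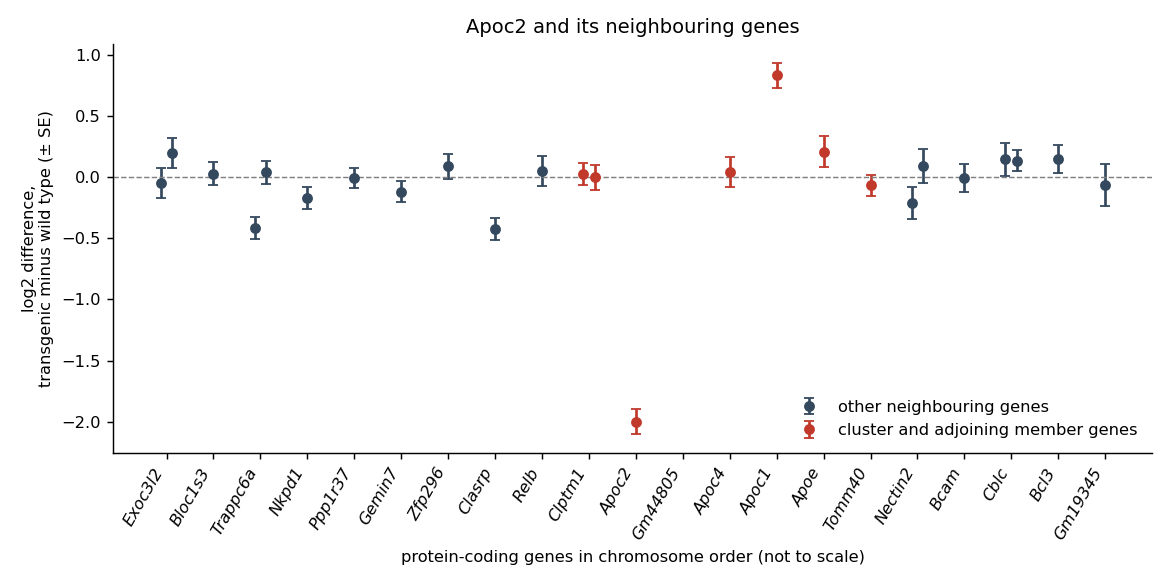
Difference in log2 intensity, transgenic minus wild type, with its SE, for Apoc2 and the 10 protein-coding genes on each side of it in chromosome order (equal spacing, 1 point per probe set, none for Gm44805). Apoc2 at -2.00 and Apoc1 at 0.83 stand away from 0, and all the others lie between -0.42 and 0.21.

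Lpl gave different readings with its 2 probe sets. The brighter one read 6.57, 6.24 and 6.19 in transgenic testes, against 6.09, 5.68 and 5.99 in wild-type testes. The groups did not overlap, though transgenic replicate 3 and wild type replicate 1 were only a small step apart. The means were 6.33 ± 0.21 in transgenic and 5.92 ± 0.21 in wild-type testis (SD, n = 3 each), a difference of 0.41 (SE 0.14), which lay between 0.29 (without wild type replicate 2, its lowest array) and 0.50 when 1 array was left out. The dimmer one, of a class that can read several transcripts of a gene, gave 4.81, 4.40 and 4.60 in transgenic testes, against 4.89, 4.70 and 4.76 in wild-type testes. Those groups overlapped, with a difference in the other direction (-0.18, SE 0.12).

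Apoa1, the main protein of high-density lipoprotein, is read by 4 probe sets, all of classes that can match several transcripts. Their differences were 0.09 (SE 0.19), 0.00 (SE 0.09), 0.13 (SE 0.11) and 0.17 (SE 0.09), and the groups overlapped in the first 3. The fourth read 6.06, 6.16 and 6.16 in transgenic testes, against 6.04, 5.89 and 5.95 in wild-type testes, apart by 0.02 at the nearest. With the first, wild type replicate 2 was low, since the transgenic testes read 5.73, 6.01 and 5.87 and the wild-type testes 6.00, 5.27 and 6.07. Without that array the difference became -0.17. Apob, the structural protein of very-low-density and low-density lipoprotein, read 5.20, 5.54 and 5.59 in transgenic testes, against 5.74, 5.22 and 5.53 in wild-type testes with its brighter probe set. Those values interleaved (difference -0.05, SE 0.15). The dimmer probe set gave 0.08 (SE 0.12), or -0.04 without wild type replicate 2.

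Lrp8, the receptor for apolipoprotein E, reelin and selenoprotein P, was read by 3 probe sets that did not move together. One read 6.83, 6.64 and 6.53 in transgenic testes, against 7.00, 7.15 and 6.98 in wild-type testes. All transgenic values lay below the wild-type ones, with means of 6.67 ± 0.15 in transgenic and 7.04 ± 0.09 in wild-type testis (SD, n = 3 each) and a difference of -0.38 (SE 0.11). The brightest read 7.93, 7.78 and 7.95 in transgenic testes, against 7.94, 8.27 and 8.09 in wild-type testes, overlapping at 1 array of each group (difference -0.21, SE 0.11). The last read 7.01, 7.15 and 7.18 in transgenic testes, against 6.95, 7.02 and 7.34 in wild-type testes, with no separation (difference 0.01, SE 0.12).

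The Gapdh 3′ minus 5′ log2 difference, which grows as RNA degrades, was 0.27 ± 0.06 in transgenic and 0.11 ± 0.05 in wild-type testis (SD, n = 3 each; exact permutation test, two-sided p = 0.1, the smallest 3 against 3 can give). With it as a covariate, the difference of Apoc2 was -1.76 (SE 0.18) and that of Apoc1 1.08 (SE 0.18). The beta-actin difference was 0.50 ± 0.03 in transgenic and 0.47 ± 0.05 in wild-type testis (exact permutation p = 0.7). The Gapdh covariate took 9 of the 18 member differences to the other side of 0. Apoa1 turned to -0.47 (SE 0.34), -0.20 and -0.001, and its probe set that had read 0.00 became -0.04. The dimmer Apob probe set turned to -0.32 (SE 0.19), and the brighter went further down, from -0.05 to -0.67 (SE 0.19). Tomm40 turned to 0.07, Apoc4 to -0.14, and Clptm1 to -0.07 and 0.14. The Lrp8 probe set whose groups did not overlap shrank to -0.054 (SE 0.17), and the other 2 gave -0.03 (same side) and -0.07 (turned). Apoe gave 0.37 (SE 0.25), and Lpl 0.43 (SE 0.28) and -0.17, on the same side as without the covariate. The covariate differs between the groups itself, and the SEs are larger with it for all 18 probe sets.

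Markers of cells known to make these transcripts were read in the same arrays. Macrophages are a source of transcripts of this cluster and of Lpl. Of 17 probe sets of 11 macrophage markers, 16 were above 0 (56.5% of all probe sets were), with a median of 0.16. The mean level of that list ran from 6.69 to 6.73 in transgenic testis and from 6.45 to 6.61 in wild-type testis, without overlap. None of them passed limma's test, and 4 of 17 had an unadjusted p under 0.05, where 6.69% of all probe sets did. Lyz2, lysozyme of myeloid cells, read 8.17 ± 0.03 in transgenic and 7.81 ± 0.15 in wild-type testis (SD, n = 3; limma adjusted p = 0.331), and the complement gene C1qc read 7.05 ± 0.02 and 6.76 ± 0.20 in the same order (adjusted p = 0.659). Adipocytes are a main source of Lpl, and 9 of 11 probe sets of 7 adipocyte markers were above 0, with a median of 0.10. Their mean level ran from 6.50 to 6.63 in transgenic testis and from 6.36 to 6.48 in wild-type testis. None passed (limma, 0 at an unadjusted p under 0.05). Retn and Lep read 0.20 and 0.20 (adjusted p = 0.785 and 0.857), the Lep probe set at a dim level. No value is 0 on this scale, and no list gives a detection call. Apoc2 was lower in transgenic testis (-2.00), and Apoc4 overlapped (0.04). The part of these cells in the difference of any member, whether higher, lower or overlapping, was not tested.

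**Figure D4:**
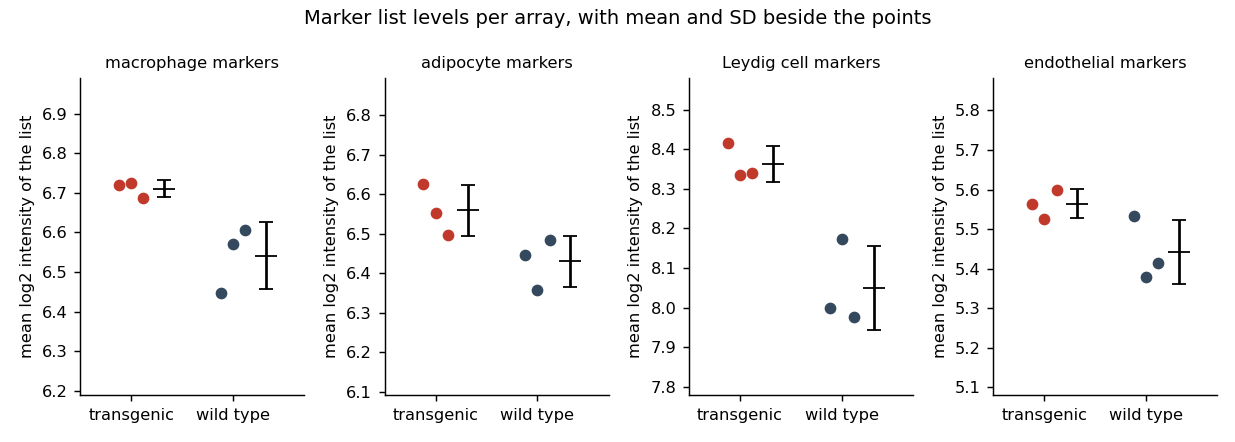
Mean log2 intensity of the probe sets of 4 marker lists in each array (points), with the group mean and SD beside them, transgenic left and wild type right, 3 arrays each. The macrophage, adipocyte and Leydig cell lists lie higher in every transgenic array, and the endothelial groups overlap, at 5.53.

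In the other marker lists, 9 probe sets of 5 Leydig cell markers had a mean level from 8.33 to 8.42 in transgenic and from 7.98 to 8.17 in wild-type testis (7 above 0, median 0.11). One of them passed, Hsd3b1 of steroid synthesis (1.48, SE 0.13, limma adjusted p = 0.00109), and 2 had an unadjusted p under 0.05. Without it the other 8 ran from 8.14 to 8.22 in transgenic and from 7.94 to 8.11 in wild-type testis. Of these 8, Hsd17b3 differed most (0.91, SE 0.20, limma adjusted p = 0.146). The rest lay between -0.08 (Cyp11a1) and 0.28 (Star). The 13 probe sets of 9 Sertoli cell markers ran from 6.90 to 6.99 in transgenic and from 7.06 to 7.20 in wild-type testis (6 above 0, median -0.01). One passed, the cystatin gene Cst9 (-2.35, SE 0.11, adjusted p = 4.85e-05). Without it the other 12 overlapped, at 6.82 to 6.91 in transgenic and 6.81 to 6.92 in wild-type testis. Of 9 endothelial probe sets, 7 were above 0 (median 0.14), with means from 5.53 to 5.60 in transgenic and from 5.38 to 5.53 in wild-type testis. None passed limma's test, and 3 of 9 had an unadjusted p under 0.05 (6.69% of all probe sets did), with Tek at 0.47 (adjusted p = 0.237) and Emcn at 0.24 (adjusted p = 0.685). Liver, the main source of plasma apolipoproteins, had 10 marker probe sets with means from 5.10 to 5.16 in transgenic and from 4.96 to 5.24 in wild-type testis (4 above 0, median -0.04). None passed (limma, 1 at an unadjusted p under 0.05), with Ttr at 0.34 (adjusted p = 0.677) and Fgb at -0.23 (adjusted p = 0.786). The 6 epididymal probe sets ran from 5.10 to 5.22 in transgenic and from 5.02 to 5.39 in wild-type testis (5 above 0, median 0.06). None passed (limma, 1 at an unadjusted p under 0.05), with Rnase10 at -0.60 (adjusted p = 0.0647) and Ros1 at 0.12 (adjusted p = 0.963). Of the 15 haploid germ cell probe sets none passed (limma, 0 at an unadjusted p under 0.05; 5 above 0, median -0.02), with Spaca1 at -0.18 (adjusted p = 0.796) and Odf1 at -0.09 (adjusted p = 0.946). The probe sets given for Tek, Emcn, Ttr, Rnase10 and Ros1 are dim ones, among the lowest 40% of the table. Without that 40%, 4 of 9 endothelial, 4 of 10 hepatocyte and 1 of 6 epididymal probe sets would remain.

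The lipoprotein pathway around the cluster was read through 5 lists of genes, and none of their probe sets passed limma's test, where 0.444% of all probe sets did and 6.69% had an unadjusted p under 0.05. As with the macrophage, adipocyte and Leydig cell markers, the mean levels of 4 of these lists were higher in every transgenic array. The array medians themselves ran from 5.99 (wild type replicate 2) to 6.08, and 56.5% of all probe sets were above 0. In the receptor, assembly, fatty acid uptake, macrophage and adipocyte lists, the nearest arrays of the groups lay closer together than the lowest and highest median. How often other lists of like size separate was not tested. The lipases ran from 6.73 to 6.77 in transgenic and from 6.63 to 6.64 in wild-type testis, and the receptors from 6.11 to 6.17 in transgenic and from 6.09 to 6.10 in wild-type testis. Lipoprotein assembly ran from 6.60 to 6.64 in transgenic and from 6.52 to 6.55 in wild-type testis. Fatty acid uptake ran from 7.408 to 7.468 in transgenic and from 7.340 to 7.406 in wild-type testis. The other apolipoproteins overlapped, at 6.72 to 6.80 in transgenic and 6.64 to 6.75 in wild-type testis. Among 35 probe sets of 21 other apolipoprotein genes, 23 were above 0, with a median of 0.03 (0.02 over all probe sets) and a range from -0.34 to 0.39, and 4 had an unadjusted p under 0.05. Apol8, at a dim level, read 4.48, 4.39 and 4.57 in transgenic testes, against 4.22, 4.05 and 4.25 in wild-type testes. That was a difference of 0.31 without overlap (SE 0.10, limma adjusted p = 0.451). Apoa4, whose product coats chylomicrons and high-density lipoprotein, read 6.17, 6.07 and 5.94 in transgenic testes, against 6.38, 6.23 and 6.58 in wild-type testes. The Apoa4 difference was -0.34 (SE 0.11, adjusted p = 0.516), again without overlap, and its other probe set gave -0.07 (adjusted p = 0.973).

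The lipases that work beside Lpl, with the proteins that fold, anchor or inhibit them, had 30 probe sets of 15 genes. Of these, 25 were above 0, with a median of 0.09, and 2 had an unadjusted p under 0.05 (limma). Both of those belong to Lipg, endothelial lipase, which acts on the phospholipids of high-density lipoprotein. With the first probe set Lipg read 5.49, 5.47 and 5.71 in transgenic testes, against 4.92, 5.09 and 5.16 in wild-type testes, a difference of 0.50 (SE 0.11, adjusted p = 0.126). With the second it read 6.71, 6.95 and 7.12 in transgenic testes, against 6.42, 6.50 and 6.34 in wild-type testes, a difference of 0.51 (SE 0.12, adjusted p = 0.176). Neither pair of groups overlapped, and the other probe set gave 0.12 (adjusted p = 0.956) with overlap. The first Lipg probe set is a dim one, among the lowest 40% of the table. Lmf2, a relative of the factor that matures lipases in the endoplasmic reticulum, read 0.20 (SE 0.10, adjusted p = 0.784).

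Lipoprotein receptors and their adaptors had 50 probe sets of 20 genes, 31 above 0, with a median of 0.04 and 7 at an unadjusted p under 0.05 (limma). Dab1, the adaptor that carries the reelin signal from Lrp8 and the VLDL receptor, read 4.34, 4.34 and 4.38 in transgenic testes, against 4.09, 3.93 and 4.04 in wild-type testes (difference 0.33, SE 0.09, adjusted p = 0.27). All transgenic values were above, at a dim level, and its other 4 probe sets gave 0.08 to 0.27. Lrp6, a Wnt co-receptor of the same receptor family, read -0.35 with 1 probe set (SE 0.10, adjusted p = 0.358) and 0.11 with the other (adjusted p = 0.934).

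Genes of lipoprotein assembly and cholesterol efflux had 31 probe sets of 17 genes, 25 above 0, with a median of 0.09 and 2 at an unadjusted p under 0.05 (limma). Mttp, which loads lipid onto the product of Apob, read 7.21, 7.38 and 7.52 in transgenic testes, against 7.70, 7.75 and 7.62 in wild-type testes. The transgenic values were all lower (difference -0.32, SE 0.10, adjusted p = 0.473), and the other probe set gave -0.31 (SE 0.16, adjusted p = 0.814). Tm6sf2, which helps load very-low-density lipoprotein with lipid, read 6.10, 6.38 and 6.45 in transgenic testes, against 6.02, 5.38 and 5.78 in wild-type testes. That difference was 0.58 (SE 0.16, adjusted p = 0.334) and turned to -0.085 with the Gapdh covariate.

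Fatty acid uptake and storage, the step after lipolysis, had 40 probe sets of 22 genes, 27 above 0, with a median of 0.03 and 4 at an unadjusted p under 0.05 (limma). Cd36, a fatty acid and lipoprotein receptor, read 7.06, 7.12 and 6.98 in transgenic testes, against 6.59, 6.59 and 6.44 in wild-type testes. The groups were well apart (difference 0.51, SE 0.09, adjusted p = 0.0606). Its adjusted p ran from 0.00279 to 0.365 over the 15 alternatives, and it was 0.037 without wild type replicate 2. A second Cd36 probe set read 8.11, 8.01 and 7.84 in transgenic testes, against 7.10, 7.88 and 7.38 in wild-type testes, overlapping at wild type replicate 2 (0.53, SE 0.18, adjusted p = 0.508, and 0.0202 without that array). The dimmest one gave 0.03 (adjusted p = 0.989). Fabp3, a cytosolic fatty acid carrier, read 11.17, 11.25 and 10.95 in transgenic testes, against 10.49, 10.71 and 10.63 in wild-type testes. That was a difference of 0.51 (SE 0.11, adjusted p = 0.124) without overlap, and its other probe set gave 0.05 (adjusted p = 0.982).

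**Figure D5:**
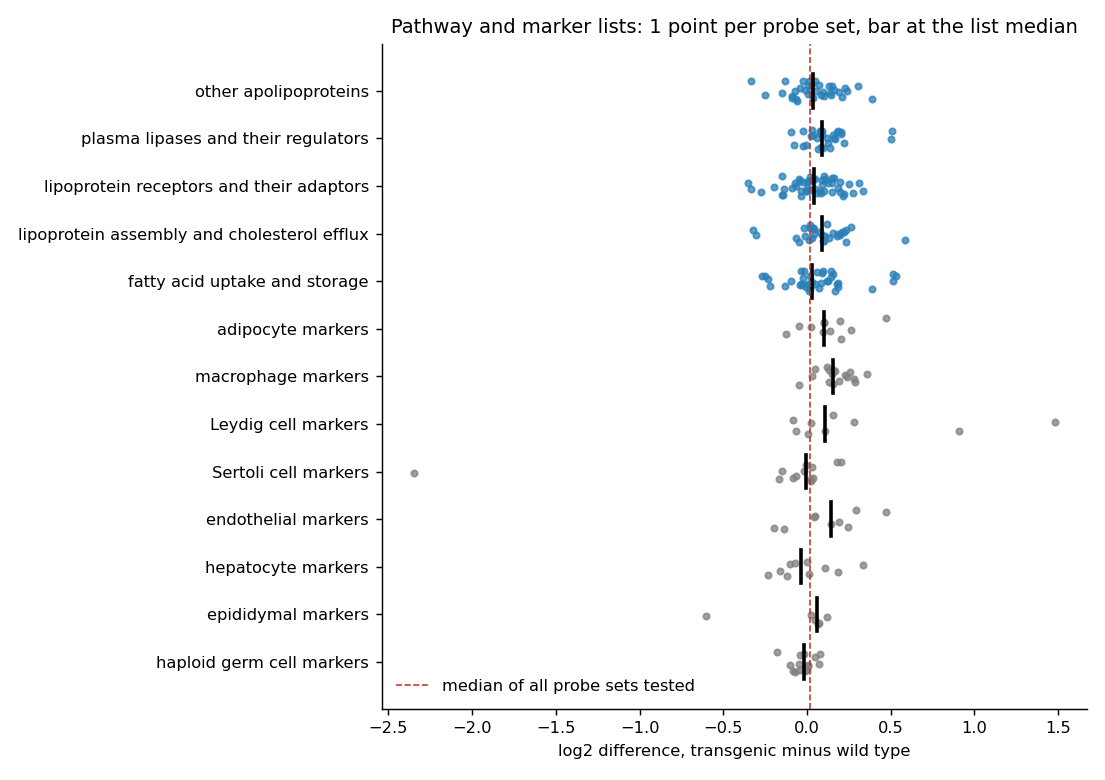
Difference in log2 intensity, transgenic minus wild type, for each probe set (points) of the 5 pathway lists and 8 marker lists, with a bar at the list median and a dashed line at the median of all probe sets, 0.02. Most points lie within 0.4 of 0, and Cst9 at -2.35 and Hsd3b1 at 1.48 are the points farthest out.

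Profiles over the 6 arrays, each centred on its own mean, were ranked among single-gene probe sets, leaving out genes with clone-style or predicted-gene symbols. In that ranking Apoc2 was nearest to Aknaos, Galc, Uqcr10, Cst9 and Rcbtb2. Their root mean square differences from it were 0.14, 0.14, 0.20, 0.22 and 0.24 on the log2 scale. These lie on chromosomes 4, 12, 11, 2 and 14, and not on chromosome 7. Any other probe sets of these genes are not given here. Since the measure follows the genotype difference, which chose Apoc2, it picks probe sets with a like difference, from -2.35 to -1.82. Galc read 5.55, 5.43 and 5.11 in transgenic testes, against 7.54, 7.53 and 7.55 in wild-type testes, the same direction and about the same distance apart as Apoc2.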

How the data were processed

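The deposited table holds log2 intensities for 45101 probe sets of 6 whole-genome Affymetrix arrays, 1 column per array. RMA and the affy package are named per the submitters' processing notes, without version or parameters. Because RMA brings the arrays to nearly equal distributions, any change common to all transcripts is removed. The 64 control probe sets were left out. Platform annotation gave 34945 probe sets 1 gene, 932 several and 9160 none, and RefSeq (GRCm38.p6) matched 34884 of the first. Only single-gene probe sets were named.

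Transgenic was compared with wild type by limma 3.58.1 in R 4.3.3 (lmFit, eBayes, two-sided) over all 45037 probe sets, with Benjamini-Hochberg adjustment, a threshold of 0.05 and no filter on dim probe sets. SDs are over 3 arrays, whose number limits the precision. The members, the 13 gene lists and the rules were chosen with earlier results of these data known. Named were all members, their neighbours, the list probe sets that passed (at most 4), otherwise the 2 genes of smallest p, and the 5 profiles nearest Apoc2. Other probe sets of named list genes were added, but not those of the profiles nearest Apoc2. Same-numbered replicates were not treated as paired, since no label ties them. Their deviations from the group means correlated at -0.32, -0.07 and -0.01. At most 2.61% of the values of any 2 arrays were identical.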

Additional observations from a re-analysis of the deposited data

How the results depend on the processing

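The test over all probe sets passed 200 of them. The count was 309 with a variance trend, 117 with the replicate block, 1058 with array weights, 18 with the Gapdh covariate, and from 70 (without wild type replicate 3) to 429 (without wild type replicate 2) when 1 array was left out, with 71, 75 and 73 without transgenic replicates 1, 2 and 3. The default search for array weights did not converge and a gene-by-gene one was chosen after seeing the data, which gave wild type replicate 3 a weight of 4.70 and wild type replicate 2 a weight of 0.33. No label ties same-numbered replicates to a shared source, and the block changed no member or list call. Of the 248 member differences under the alternatives, 234 lay within 1 SD of those given. Of the 14 others, 13 were with the Gapdh covariate, which turned the sign of 9 member differences (Apoa1 to -0.47 and Apob to -0.32 among them). Apoc2 was -1.76 and Apoc1 1.08 with the Gapdh covariate, and all 15 alternatives kept the direction of both. The count of members called was 1 with that covariate and from 1 to 2 when 1 array was left out, always with Apoc2. Apoc2 was chosen by its difference on these same arrays, so nothing is read from its calls. With array weights the calls were 2 among other apolipoproteins, 2 among lipases, 2 among receptors, 1 in lipoprotein assembly, 3 in fatty acid uptake, 2 each among Leydig cell markers and neighbouring genes (Clasrp and Trappc6a), and 1 each among endothelial, hepatocyte and epididymal markers. In fatty acid uptake 1 passed (Cd36) with the dimmest 40% or 60% dropped or quantile normalization again, 1 (Fabp3) with a variance trend, and from 0 to 2 when 1 array was left out (2 of Cd36 without wild type replicate 2). Leydig cell markers gave 2 with the Gapdh covariate, and from 1 to 2 when 1 array was left out (Hsd17b3 joined Hsd3b1 in each case of 2). Rnase10 alone of the epididymal markers passed after quantile normalization again, median centring or a variance trend (1 each), and 0 to 1 passed when 1 array was left out. Among the neighbours 1 passed with a variance trend (Clasrp). With the Gapdh covariate Tm6sf2 turned to -0.085 (adjusted p = 0.907) and, also among list genes, Ros1 to -0.23 (adjusted p = 0.756). Median differences of the lipases and of fatty acid uptake stayed above 0 in all 15 alternatives. Those of the receptors and of lipoprotein assembly did in 14 of 15, and were -0.035 and -0.015 in the remaining one. The cause of these changes was not tested. Probe sets of member genes whose names end in _x_at, _s_at or _a_at, and dim ones, had no value where those were dropped.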
